A study of Mus musculus with 10 samples.

Results

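Interferon-stimulated genes were followed in mouse dorsal root ganglia (DRG), the ganglia that hold the cell bodies of sensory neurons, 24 h after the sciatic nerve was cut. The 41 genes were chosen by name and fell into 3 classes, with 29 genes that are typical of a type I interferon response (type I-type ISGs), 9 guanylate-binding protein and immunity-related GTPase genes (GBP/IRG GTPases) and 3 antigen-processing genes. They are 41 of 54309 annotated genes. All 41 passed the filter on low counts and were among the 20836 genes tested.

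RNA-seq was performed on L4 and L5 DRG of C57BL/6 mice aged 6 to 8 weeks, and each library pooled RNA of 2 mice. Female axotomy and male axotomy (complete transection of the sciatic nerve) had 3 libraries each, and female sham and male sham (surgery without the cut) had 2 libraries each, listed below in the order of their replicate numbers. All mice were operated under isoflurane, and no transgene is named for any group. Sham and axotomy were done in different animals that were assigned at random, and no library came from DRG of unoperated mice. Estimated counts summed to between 55258476 and 90111671 per library, and Atf3, the injury-induced transcription factor, ranged from 76.7 to 126 CPM (normalized counts, scaled to the library) in sham and from 369 to 697 CPM in axotomy libraries. Markers of sensory neurons were present in every library, with a summed level of 7430 to 10900 CPM. In such bulk tissue, fewer cells of a type and less RNA per cell cannot be told apart.

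Interferons are cytokines that put cells into an antiviral state. Type I interferons bind a receptor built of IFNAR1 and IFNAR2 and act through the kinases JAK1 and TYK2 on a complex of STAT proteins with IRF9, which binds interferon-stimulated response elements (ISRE) in promoters. Interferon-γ binds IFNGR1 and IFNGR2 and acts through JAK1 and JAK2 on factors that bind gamma-activated sites (GAS). The type I-type ISGs encode RNA sensors, antiviral effectors and regulators of this pathway, whereas GBP and IRG GTPases, which attack the vacuoles of intracellular pathogens, are known above all as targets of interferon-γ, and many genes of either class respond to both kinds of interferon. In DRG, sensory neurons and macrophages are known to respond to interferons.

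Promoter sequences of RefSeq (GRCm38.p6) were matched by symbol to 28 of the 41 genes. In windows from 250 bases before to 50 bases after the start site, an ISRE-like motif (a pair of GAAA half-sites spaced by 2 bases, either strand) was found in at least 1 window of 16 of the 28 genes, against 3.99% of all 27025 genes with a window, and a GAS motif (TTCNNNGAA, a palindrome read the same on both strands) for 8 of 28, against 9.55%. By class, the ISRE-like motif was found for 11 of 20 matched type I-type ISGs, 5 of 5 GBP/IRG GTPases and 0 of 3 antigen-processing genes, and the GAS motif for 5, 2 and 1 of them. The stretches below, 4 from type I-type ISGs and 4 from GBP/IRG GTPases, are shown because they hold the elements through which the classes are read. ISRE-like and GAS matches are in capitals, and adjacent or overlapping matches form 1 run. The sequences are written 5′ to 3′ on the strand of the gene and end upstream of the start site.
Isg15: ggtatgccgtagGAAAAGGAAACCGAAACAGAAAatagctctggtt
Ifit1: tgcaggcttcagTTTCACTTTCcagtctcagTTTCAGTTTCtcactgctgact
Oas1a: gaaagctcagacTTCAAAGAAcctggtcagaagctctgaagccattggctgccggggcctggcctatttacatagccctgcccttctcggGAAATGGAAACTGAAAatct
Bst2: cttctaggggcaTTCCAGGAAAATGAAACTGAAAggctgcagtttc
Gbp2: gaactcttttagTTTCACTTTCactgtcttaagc
Gbp7: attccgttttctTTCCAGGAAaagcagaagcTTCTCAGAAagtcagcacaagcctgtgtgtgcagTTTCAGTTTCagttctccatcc
Igtp: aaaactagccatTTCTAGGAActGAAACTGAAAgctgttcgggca
Irgm1: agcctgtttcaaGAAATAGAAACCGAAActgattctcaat
The positions are Isg15 chr4:156200863-156200908 (minus strand), Ifit1 chr19:34640773-34640825 (plus strand), Oas1a chr5:120907526-120907635 (minus strand), Bst2 chr8:71537575-71537620 (minus strand), Gbp2 chr3:142620592-142620625 (plus strand), Gbp7 chr3:142530218-142530304 (plus strand), Igtp chr11:58199499-58199543 (plus strand) and Irgm1 chr11:48871423-48871462 (minus strand). Isg15 held 3 overlapping ISRE-like matches, the first starting 78 bases before the start site. Oas1a, Bst2, Gbp7 and Igtp held matches of both kinds, whereas Ifit1, Gbp2 and Irgm1 held ISRE-like matches without a GAS match in this window. A match is a string of letters and no measurement of binding.

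The members differed widely in level. Per length, Ifi27 was the most abundant, with a mean of 373 TPM (transcript abundance scaled by length and library) in sham libraries, and Oas3 the least, with 0.191 TPM. The median level in sham was 4.93 TPM for the type I-type ISGs (0.191 to 373), 7.24 TPM for the GBP/IRG GTPases (0.6 to 23.8) and 5.85 TPM for the antigen-processing genes (4.94 to 18.4).

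Before any comparison, 2 libraries stood apart for these genes. Female sham 1 was higher than female sham 2 for 38 of the 41 genes, with a median ratio of 1.57 (0.708 to 5.08), against 0.99 over all genes. It exceeded female sham 2 by more than 1.5-fold for 24 members (6.26% of all genes), 13 of the 29 type I-type ISGs, 8 of the 9 GBP/IRG GTPases and all 3 antigen-processing genes. Female sham 1 was the highest of all 10 libraries for 7 of 9 GBP/IRG GTPases, 1 of 3 antigen-processing genes and 0 of 29 type I-type ISGs (5.9% of all genes). Male axotomy 1 was the highest library for 27 of the 41 genes (14.4% of all genes), with a median ratio of 1.47 to the mean of the other male axotomy libraries. The male sham libraries were closer, with a median ratio of 1.1 between them. The effect of leaving out female sham 1 or male axotomy 1 is given below for counts and class medians, and for single genes only where stated.

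**Figure D1:**
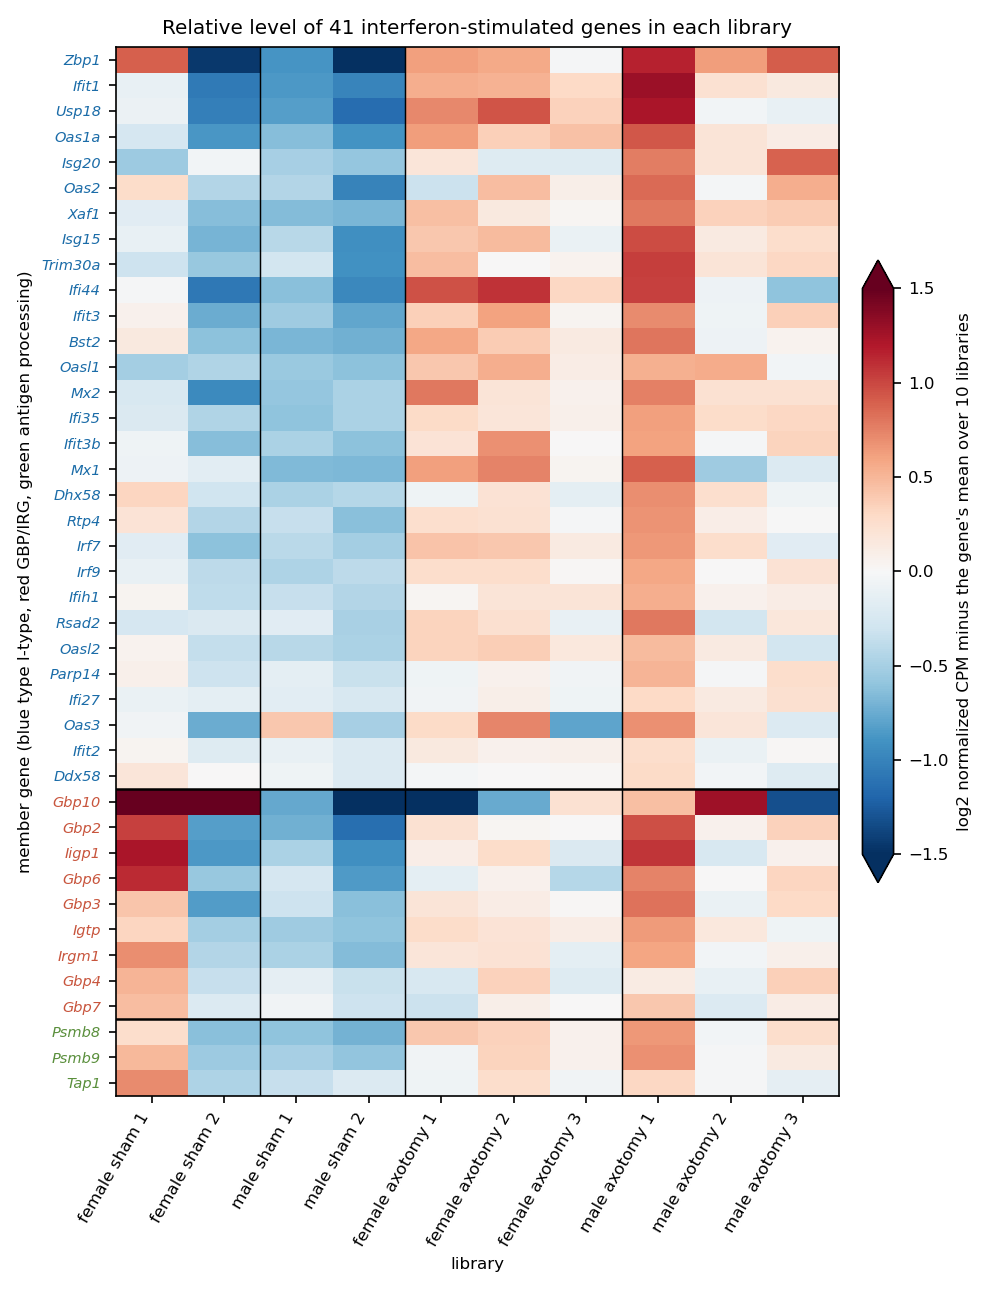
Relative level of each of the 41 members (rows, grouped by class and ordered by the male log2FC) in the 10 libraries (columns). Colour is log2 of the normalized CPM minus the mean of that gene over all libraries. All GBP/IRG rows are above their mean in female sham 1 as well as in male axotomy 1, by 0.32 (Igtp) to 2.60 (Gbp10) in the former and by 0.12 (Gbp4) upward in the latter. The median of the type I-type rows is −0.61 to −0.08 in the 4 sham libraries and 0.04 to 0.71 in the 6 axotomy libraries. Many single rows depart from this in some library, such as Zbp1 in female sham 1 (0.90) and Mx1 in male axotomy 2 (−0.53).

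In males, most type I-type ISGs were upregulated after axotomy, together with some GBP/IRG GTPases and antigen-processing genes. With edgeR's quasi-likelihood test and padj under 0.1 (Benjamini-Hochberg over all genes tested), 30 of the 41 members were upregulated and 0 were downregulated in males, against 21.8% and 20.1% of all genes. These were 24 of 29 type I-type ISGs, 4 of 9 GBP/IRG GTPases and 2 of 3 antigen-processing genes. All 41 had a log2FC above 0 in males (52.5% of all genes), and the median log2FC was 0.95, 0.85 and 0.84 in the 3 classes, against 0.03 over all genes. For 36 members every male axotomy library lay above every male sham library (29.3% of all genes). Each log2FC of a gene below is printed ± SE.

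The number of male DEGs rested on the sham libraries. It was 7 without male sham 2, where 11.3% of all genes were upregulated, 17 without male sham 1 (11.2% of all genes) and 24 without male axotomy 1 (17% of all genes). A sham library left alone in its group was assumed to vary like the other groups. Without male axotomy 1 the class medians in males were 0.69, 0.60 and 0.60. The male calls of Dhx58, Gbp2, Gbp3, Irgm1, Psmb9 and Rsad2 did not pass in that fit. The 7 genes upregulated in males in each of the 10 fits that leave out 1 library were Ifi27, Ifi35, Irf9, Isg20, Oas1a, Oasl1 and Xaf1, all type I-type ISGs.

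In females, 9 members were upregulated and 1 was downregulated, against 10.4% and 9.74% of all genes. The 9 were all type I-type ISGs and were all among the male DEGs, and the 1 was the GBP gene Gbp10. The median log2FC in females was 0.53 for the type I-type ISGs, −0.23 for the GBP/IRG GTPases and 0.05 for the antigen-processing genes, against 0.00 over all genes. In females 27 of the 29, 2 of the 9 and 2 of the 3 genes of these classes had a log2FC above 0 (50.1% of all genes). Every female axotomy library lay above every female sham library for 18 members, all type I-type (26.2% of all genes), and below for 1, Gbp10 (25.9%).

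Either female sham library moved these values. Without female sham 1 the class medians in females were 0.75, 0.53 and 0.66, and 6 members (Ifi35, Ifit3, Mx2, Oas1a, Psmb8 and Xaf1) were upregulated, where 3.43% of all genes were. Without female sham 2 the medians were 0.39, −0.61 and −0.38, 0 members were upregulated (2.67% of all genes), and Gbp6 and Gbp10 were downregulated (1.31%). The count of upregulated members was also 2 without female axotomy 1 (5.52% of all genes), 5 without female axotomy 2 (6.28%) and 15 without male axotomy 1 (11%), so that 0 of the 10 female calls were kept in every one of the 10 fits. Leaving out female sham 1 and male axotomy 1 together, a choice made after seeing the data, gave 20 upregulated members in females (4.6% of all genes) and 31 in males (14.5%), with 4 and 6 of the 9 GBP/IRG GTPases among them.

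**Figure D2:**
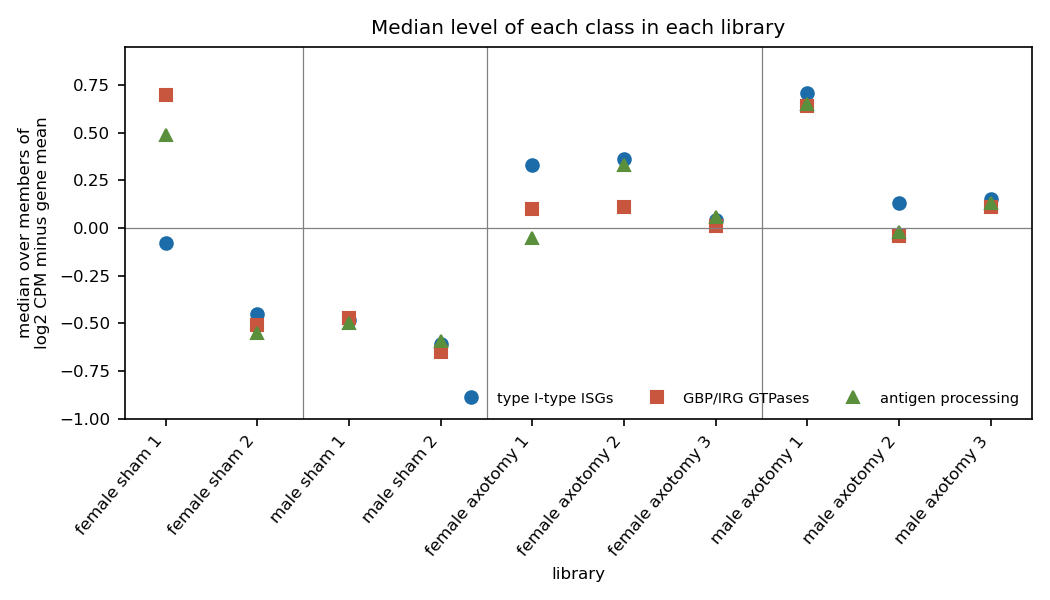
Median over the members of each class of log2 CPM minus the gene's own mean (vertical axis) in each library (horizontal axis). In female sham 1 the GBP/IRG GTPases are at 0.70 and the type I-type ISGs at −0.08, while in the other 3 sham libraries all 3 classes lie between −0.65 and −0.45.

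The type I-type ISGs with the smallest p are described first, beginning with the sensors and regulators of the pathway. Irf9, the DNA-binding subunit of the STAT complex that reads ISRE, was upregulated in both sexes. Irf9 stood at 23.4 and 19.3 CPM in female sham and at 30.3, 30.2 and 25.7 CPM in female axotomy libraries, against 18.5 and 19.3 CPM in male sham and 37.9, 25.4 and 29.6 CPM in male axotomy libraries. The groups did not overlap in either sex, with a female log2FC of 0.43 ± 0.15 (padj = 0.0952) and a male log2FC of 0.71 ± 0.16 (padj = 0.00674). Ifih1 (MDA5), a sensor of long double-stranded RNA in the cytoplasm, was upregulated in males. Its level was 10.7 and 7.96 CPM in female sham, 10.6, 11.8 and 11.8 CPM after axotomy in females, 8.2 and 7.68 CPM in male sham and 15.2, 10.9 and 11.2 CPM after axotomy in males. Female sham 1 (10.7 CPM) lay just above the lowest female axotomy library, and the model gave a female log2FC of 0.29 ± 0.16 (padj = 0.27) and a male log2FC of 0.65 ± 0.17 (padj = 0.0133). Zbp1, a sensor of Z-form nucleic acids that can trigger cell death, had the largest male log2FC of the members. For Zbp1, female sham libraries held 2.63 and 0.517 CPM and female axotomy libraries 2.15, 2.09 and 1.39 CPM, while male sham libraries held 0.766 and 0.266 CPM and male axotomy libraries 3.15, 2.18 and 2.65 CPM. In males the groups were apart, whereas female sham 1 exceeded all female axotomy libraries, with a female log2FC of 0.25 ± 0.57 (padj = 0.81) and a male log2FC of 2.41 ± 0.62 (padj = 0.0148). Without female sham 1, Zbp1 had a female log2FC of 1.86 (padj = 0.102).

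Several members act on viral RNA or proteins. Oas1a makes 2′-5′ oligoadenylates, the messengers that switch on RNase L, when it meets double-stranded RNA. Its level was 3.14 and 2.05 CPM in female sham, 5.76, 4.79 and 5.07 CPM after axotomy in females, 2.39 and 2 CPM in male sham and 7.1, 4.25 and 4.03 CPM after axotomy in males. All axotomy libraries lay above all sham libraries, with a female log2FC of 1.0 ± 0.27 (padj = 0.0333) and a male log2FC of 1.22 ± 0.27 (padj = 0.00668). Oas1a shared 68.7% of its 31-base words with its neighbour Oas1g, so the division of reads between them is uncertain. Oasl1, a relative of the OAS enzymes that in mouse limits translation of Irf7, was upregulated in both sexes. Oasl1 stood at 2.22 and 2.31 CPM in female sham and at 4.19, 4.62 and 3.4 CPM in female axotomy libraries, against 2.13 and 2.06 CPM in male sham and 4.56, 4.66 and 3.06 CPM in male axotomy libraries. The sham libraries were within 2.06 to 2.31 CPM, and the model gave a female log2FC of 0.85 ± 0.21 (padj = 0.0251) and a male log2FC of 0.97 ± 0.21 (padj = 0.00597). Isg20, a 3′-5′ exonuclease that degrades viral RNA, was upregulated in males. For Isg20, female sham libraries held 2.64 and 3.74 CPM and female axotomy libraries 4.35, 3.37 and 3.36 CPM, while male sham libraries held 2.71 and 2.56 CPM and male axotomy libraries 6.56, 4.36 and 7.11 CPM. Female libraries overlapped and male libraries did not, with a female log2FC of 0.21 ± 0.23 (padj = 0.584) and a male log2FC of 1.19 ± 0.23 (padj = 0.00425).

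Isg15 and Ifit3 are classic markers of the response. Isg15 encodes a ubiquitin-like protein that is attached to other proteins. Isg15 stood at 5.55 and 3.69 CPM in female sham and at 7.97, 8.39 and 5.6 CPM in female axotomy libraries, against 4.48 and 3.17 CPM in male sham and 11.9, 6.63 and 7.18 CPM in male axotomy libraries. All axotomy libraries lay above both sham libraries of their sex, and only the male difference passed, with a female log2FC of 0.66 ± 0.29 (padj = 0.164) and a male log2FC of 1.16 ± 0.30 (padj = 0.0139). Ifit3, which helps IFIT1 bind viral RNA that lacks host cap methylation, shared 61.8% of its 31-base words with Ifit3b. For Ifit3, female sham libraries held 23.4 and 13.4 CPM and female axotomy libraries 28.9, 34 and 23.1 CPM, while male sham libraries held 15.6 and 13.1 CPM and male axotomy libraries 36.9, 21.5 and 28.9 CPM. Female sham 1 (23.4 CPM) lay between the female axotomy libraries, and the model gave a female log2FC of 0.64 ± 0.27 (padj = 0.153) and a male log2FC of 1.02 ± 0.28 (padj = 0.019).

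Ifi35 and Xaf1 had the smallest p of the members in males. Ifi35 encodes a leucine zipper protein that partners with NMI. Its level was 21.4 and 18.3 CPM in female sham, 30.5, 28.4 and 26.5 CPM after axotomy in females, 16.5 and 18 CPM in male sham and 38.5, 30.3 and 31 CPM after axotomy in males. No sham library reached the lowest axotomy library of its sex, with a female log2FC of 0.52 ± 0.12 (padj = 0.0207) and a male log2FC of 0.95 ± 0.12 (padj = 0.000847). Xaf1, a pro-apoptotic partner of XIAP, was also upregulated in both sexes. Xaf1 stood at 16.7 and 12 CPM in female sham and at 25.7, 20.9 and 19.2 CPM in female axotomy libraries, against 12 and 11.7 CPM in male sham and 32.5, 24 and 24.5 CPM in male axotomy libraries. The lowest axotomy library (19.2 CPM) was above the highest sham library (16.7 CPM), with a female log2FC of 0.61 ± 0.18 (padj = 0.0476) and a male log2FC of 1.19 ± 0.18 (padj = 0.00148). Ifi27, a small hydrophobic membrane protein gene, was the most abundant member and had a small SE. For Ifi27, female sham libraries held 139 and 134 CPM and female axotomy libraries 144, 158 and 142 CPM, while male sham libraries held 134 and 126 CPM and male axotomy libraries 183, 163 and 176 CPM. All axotomy libraries were above all sham libraries of their sex, and the male difference passed, with a female log2FC of 0.12 ± 0.08 (padj = 0.36) and a male log2FC of 0.43 ± 0.08 (padj = 0.00309). Trim30a, a tripartite motif protein that restrains Toll-like receptor signaling in mouse, completed the 12 genes. Its level was 3.43 and 2.87 CPM in female sham, 5.85, 4.27 and 4.41 CPM after axotomy in females, 3.51 and 2.26 CPM in male sham and 8.75, 4.84 and 5.27 CPM after axotomy in males. The groups did not overlap in either sex, with a female log2FC of 0.62 ± 0.28 (padj = 0.17) and a male log2FC of 1.12 ± 0.28 (padj = 0.0127).

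Of the female DEGs outside these 12, chosen for mention after their values were seen, Usp18, the protease that removes ISG15 and blocks IFNAR2, had a female log2FC of 1.17 ± 0.42 (padj = 0.0971) and a male log2FC of 1.47 ± 0.43 (padj = 0.026). Irf7, the transcription factor that amplifies type I interferon production, had a female log2FC of 0.70 ± 0.22 (padj = 0.0609) and a male log2FC of 0.74 ± 0.22 (padj = 0.0256). Mx2, a gene of the dynamin-like GTPase family, had a female log2FC of 0.94 ± 0.27 (padj = 0.0474) and a male log2FC of 0.96 ± 0.27 (padj = 0.021). Of the reads of Mx2, 0% were assigned to transcripts annotated as protein-coding, and most to transcripts annotated as polymorphic pseudogene. Ifit3b had a female log2FC of 0.65 ± 0.24 (padj = 0.0979) and a male log2FC of 0.87 ± 0.24 (padj = 0.0191). The male DEGs Ifit1, Bst2, Oas2, Oasl2, Parp14, Rtp4, Dhx58 and Rsad2 had male log2FCs of 0.50 to 1.58. Their female log2FCs ran from −0.04 (Dhx58) to 0.97 (Ifit1) and did not pass. Ifit1, which binds viral RNA, rose in males from 20.7 and 19 CPM in sham to 91.8, 44.1 and 41.9 CPM, and male axotomy 1 was far above the others.

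5 type I-type ISGs passed in neither sex. Ifit2, a further RNA-binding IFIT gene, had a female log2FC of 0.16 ± 0.11 (padj = 0.352) and a male log2FC of 0.22 ± 0.11 (padj = 0.136). Ddx58 (RIG-I), the sensor of short 5′-triphosphate RNA, was among the most abundant of the 5 and had a female log2FC of −0.09 ± 0.12 (padj = 0.661) and a male log2FC of 0.16 ± 0.12 (padj = 0.335). The others were Ifi44, Mx1 and Oas3, whose libraries were all at or under 4.46 CPM. Ifi44 had the largest female log2FC of the members, 1.26 ± 0.46 (padj = 0.102), and a male log2FC of 1.06 ± 0.47 (padj = 0.11). Its groups did not overlap in either sex, and DESeq2 called Ifi44 upregulated in both sexes. The female and male log2FCs were 0.61 ± 0.38 (padj = 0.32) and 0.84 ± 0.39 (padj = 0.126) for Mx1, and 0.53 ± 0.46 (padj = 0.486) and 0.27 ± 0.46 (padj = 0.691) for Oas3. Only 7.74% of the reads of Mx1, a gene that is defective in most laboratory strains including C57BL/6, were assigned to protein-coding transcripts.

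**Figure D3:**
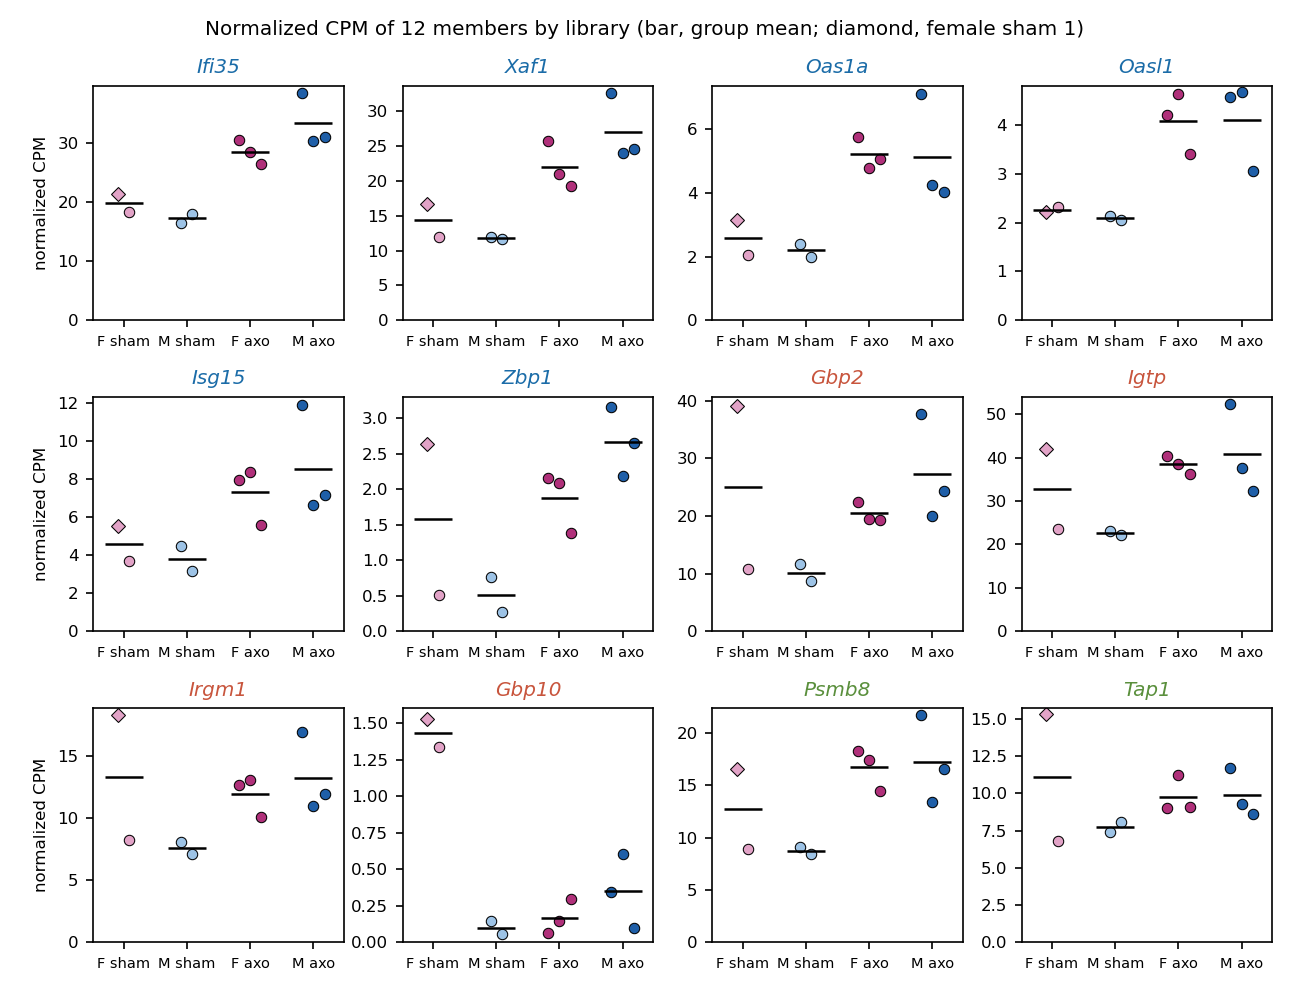
Normalized CPM (vertical axes, each from 0) of 12 members in the 4 groups, with F for female, M for male and axo for axotomy. Each point is a library, bars are group means and the diamond is female sham 1, which is the highest sham point for 11 of the 12 genes and lies under the other female sham library only for Oasl1.

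Among GBP/IRG GTPases, 4 of 9 genes rose in males, and the female sham libraries differed from each other. The male calls were not stable. Only 1 of the 9, Igtp, was called without male axotomy 1 (17% of all genes). With no filter on low counts 0 were called, and the share of all genes was not counted for that fit. The male median log2FC of the class was 0.60 without male axotomy 1, 1.02 without male sham 1 and 0.69 without male sham 2. The ratio of female sham 1 to female sham 2 was largest for Iigp1 (4.23), followed by Gbp2 (3.63), which coats and breaks pathogen vacuoles. Gbp2 stood at 39.1 and 10.8 CPM in female sham and at 22.5, 19.5 and 19.3 CPM in female axotomy libraries, against 11.6 and 8.75 CPM in male sham and 37.6, 20 and 24.3 CPM in male axotomy libraries. Male axotomy libraries were all above male sham, while female sham 1 exceeded every female axotomy library and female sham 2 lay under all of them. The model gave a female log2FC of −0.29 ± 0.49 (padj = 0.748) and a male log2FC of 1.42 ± 0.52 (padj = 0.0744). Leaving out female sham 1 gave a female log2FC of 0.92 (padj = 0.148), and leaving out female sham 2 gave −0.94 (padj = 0.132).

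Gbp3 and the IRG genes Igtp and Irgm1 were also upregulated in males. For Gbp3, a GTPase of the same family as Gbp2, male libraries did not overlap. For Gbp3, female sham libraries held 20.8 and 8.71 CPM and female axotomy libraries 17.8, 16.8 and 15.8 CPM, while male sham libraries held 12.6 and 10.1 CPM and male axotomy libraries 27.5, 14.5 and 19.2 CPM. The fitted change was a female log2FC of 0.19 ± 0.35 (padj = 0.769) and a male log2FC of 0.85 ± 0.36 (padj = 0.0984). Igtp (Irgm3) and Irgm1 are regulatory IRG proteins that guard the membranes of the cell against the effector IRGs. Igtp stood at 41.9 and 23.6 CPM in female sham and at 40.4, 38.6 and 36.3 CPM in female axotomy libraries, against 23.2 and 22.1 CPM in male sham and 52.4, 37.5 and 32.3 CPM in male axotomy libraries. Here only female sham 1 reached the level of the axotomy libraries, with a female log2FC of 0.23 ± 0.23 (padj = 0.556) and a male log2FC of 0.85 ± 0.24 (padj = 0.0218). For Irgm1, female sham libraries held 18.3 and 8.26 CPM and female axotomy libraries 12.7, 13.1 and 10.1 CPM, while male sham libraries held 8.1 and 7.14 CPM and male axotomy libraries 16.9, 11 and 11.9 CPM. Irgm1 in female sham 1 (18.3 CPM) was above all other libraries, with a female log2FC of −0.15 ± 0.29 (padj = 0.776) and a male log2FC of 0.79 ± 0.30 (padj = 0.0648).

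Iigp1 (Irga6) is an effector IRG that loads onto parasite vacuoles, and it passed in neither sex. Iigp1 stood at 16 and 3.78 CPM in female sham and at 7.36, 8.26 and 5.88 CPM in female axotomy libraries, against 4.93 and 3.63 CPM in male sham and 14.4, 5.8 and 7.24 CPM in male axotomy libraries. Male axotomy libraries were above male sham, with a female log2FC of −0.47 ± 0.58 (padj = 0.647) and a male log2FC of 1.09 ± 0.61 (padj = 0.211). Gbp6 shared 74.3% of its 31-base words with other genes, mostly Gm43302, and 63.1% of its reads were assigned to transcripts annotated for nonsense-mediated decay. Gbp6 stood at 19.7 and 6.11 CPM in female sham and at 8.13, 9.44 and 6.72 CPM in female axotomy libraries, against 7.59 and 5.01 CPM in male sham and 15.1, 9.06 and 11.3 CPM in male axotomy libraries. Gbp6 had a female log2FC of −0.68 ± 0.43 (padj = 0.338) and a male log2FC of 0.90 ± 0.45 (padj = 0.155). Gbp4 and Gbp7, GTPases of the same gene cluster, had the smallest male log2FCs of the class. For Gbp4, female sham libraries held 7.11 and 3.96 CPM and female axotomy libraries 4.23, 6.36 and 4.39 CPM, while male sham libraries held 4.56 and 3.99 CPM and male axotomy libraries 5.44, 4.63 and 6.41 CPM. The model gave a female log2FC of −0.16 ± 0.25 (padj = 0.731) and a male log2FC of 0.36 ± 0.26 (padj = 0.31), and 88.9% of the reads of Gbp4 were assigned to nonsense-mediated decay transcripts. Gbp7 stood at 24.8 and 15.7 CPM in female sham and at 14.5, 19.2 and 18.2 CPM in female axotomy libraries, against 17.4 and 14.6 CPM in male sham and 24, 15.7 and 19.5 CPM in male axotomy libraries. Groups overlapped in both sexes, with a female log2FC of −0.23 ± 0.21 (padj = 0.521) and a male log2FC of 0.30 ± 0.22 (padj = 0.32).

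Gbp10 was the lone member that was downregulated, and it was measured at very low depth. Estimated counts were 80.7 and 23 in female sham, 6.4, 11.8 and 12.9 in female axotomy, 15.1 and 4.7 in male sham and 34.6, 37 and 8.8 in male axotomy libraries. Gbp10 stood at 1.53 and 1.34 CPM in female sham and at 0.0663, 0.148 and 0.295 CPM in female axotomy libraries, against 0.147 and 0.0554 CPM in male sham and 0.343, 0.605 and 0.101 CPM in male axotomy libraries. In the normalized values both female sham libraries were above the other 8 libraries, with a female log2FC of −3.22 ± 0.68 (padj = 0.0141) and a male log2FC of 1.7 ± 0.74 (padj = 0.101). In female sham 2, 13.4 of the 23 counts lay on a retained-intron transcript, and without the correction for transcript length the female log2FC was −2.14 (padj = 0.0414). The female call did not pass without female sham 1 (padj = 0.104). Gbp10 shared 89.8% of its 31-base words with other genes, 80.8% with Gbp6, and its reads may belong to either.

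Psmb8 and Psmb9, catalytic subunits of the immunoproteasome that cuts peptides for MHC class I, were upregulated in males. For Psmb8, female sham libraries held 16.5 and 8.87 CPM and female axotomy libraries 18.3, 17.4 and 14.4 CPM, while male sham libraries held 9.1 and 8.41 CPM and male axotomy libraries 21.7, 13.4 and 16.5 CPM. The male groups were apart and female sham 1 lay among the female axotomy libraries, with a female log2FC of 0.40 ± 0.25 (padj = 0.329) and a male log2FC of 0.97 ± 0.26 (padj = 0.0167). Without female sham 1 Psmb8 was upregulated in females (log2FC 0.91, padj = 0.0814). Psmb9 stood at 4.99 and 2.43 CPM in female sham and at 3.42, 4.45 and 3.71 CPM in female axotomy libraries, against 2.51 and 2.37 CPM in male sham and 5.74, 3.5 and 3.9 CPM in male axotomy libraries. Psmb9 had a female log2FC of 0.05 ± 0.29 (padj = 0.936) and a male log2FC of 0.84 ± 0.30 (padj = 0.0503). Tap1, a subunit of the transporter that carries these peptides into the endoplasmic reticulum, passed in neither sex. Tap1 stood at 15.3 and 6.83 CPM in female sham and at 9.02, 11.2 and 9.08 CPM in female axotomy libraries, against 7.43 and 8.11 CPM in male sham and 11.7, 9.31 and 8.62 CPM in male axotomy libraries. Tap1 was highest in female sham 1, with a female log2FC of −0.18 ± 0.27 (padj = 0.703) and a male log2FC of 0.35 ± 0.28 (padj = 0.368).

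**Figure D4:**
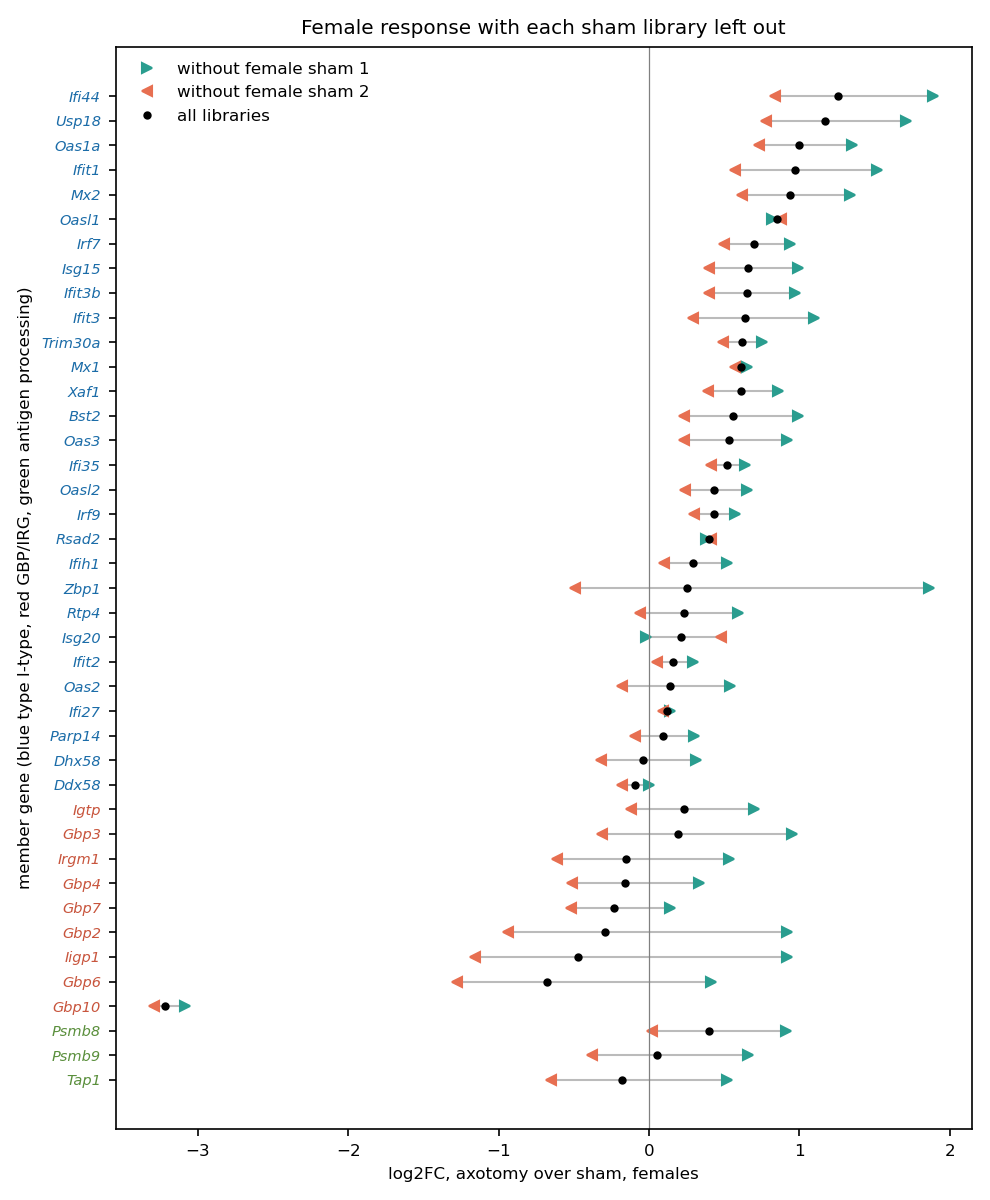
Female log2FC (horizontal axis) of each member with all libraries (black points), without female sham 1 (right-pointing triangles) and without female sham 2 (left-pointing triangles). All 9 GBP/IRG genes except Gbp10 lie to the right of 0 without female sham 1 and all 9 to the left without female sham 2, while Oasl1 and Rsad2 barely move.

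With edgeR, male and female responses were not shown to differ for any member. In the test of the difference between the sexes (male minus female log2FC), 0 of the 41 members passed (0.0192% of all genes), with 11 at an unadjusted p under 0.05 (11.4% of all genes), and DESeq2 called 1, Gbp10. The median difference over the members was 0.50, against −0.01 over all genes, and it fell to 0.16 on leaving out female sham 1 and to −0.07 on leaving out male axotomy 1 as well. Gbp10 had the smallest p, with a difference of 4.92 (SE 1.01, padj = 0.194), and DESeq2 gave 4.90 (padj = 0.00125). The difference was 1.71 (SE 0.71, padj = 0.427) for Gbp2, and it was 0.50 (SE 0.38) without female sham 1. It was 0.97 (SE 0.32, padj = 0.31) for Isg20 and 0.31 (SE 0.11, padj = 0.342) for Ifi27. Without male axotomy 2, Gbp10, Isg20 and Ifi27 passed. A padj above the threshold does not show that the sexes respond alike.

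In sham DRG, 0 members differed between males and females (0.0432% of all genes), with 3 at an unadjusted p under 0.05 (3.22% of all genes), and DESeq2 called Gbp10 lower in males. The median log2FC, male over female, was −0.34, and it was 0.00 without female sham 1. After axotomy, 0 members differed (1.52% of all genes), with 2 at an unadjusted p under 0.05 (15.4% of all genes), which were Ifi27 and Isg20, and DESeq2 called both higher in males. The median log2FC after axotomy was 0.13, and −0.08 without male axotomy 1.

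**Figure D5:**
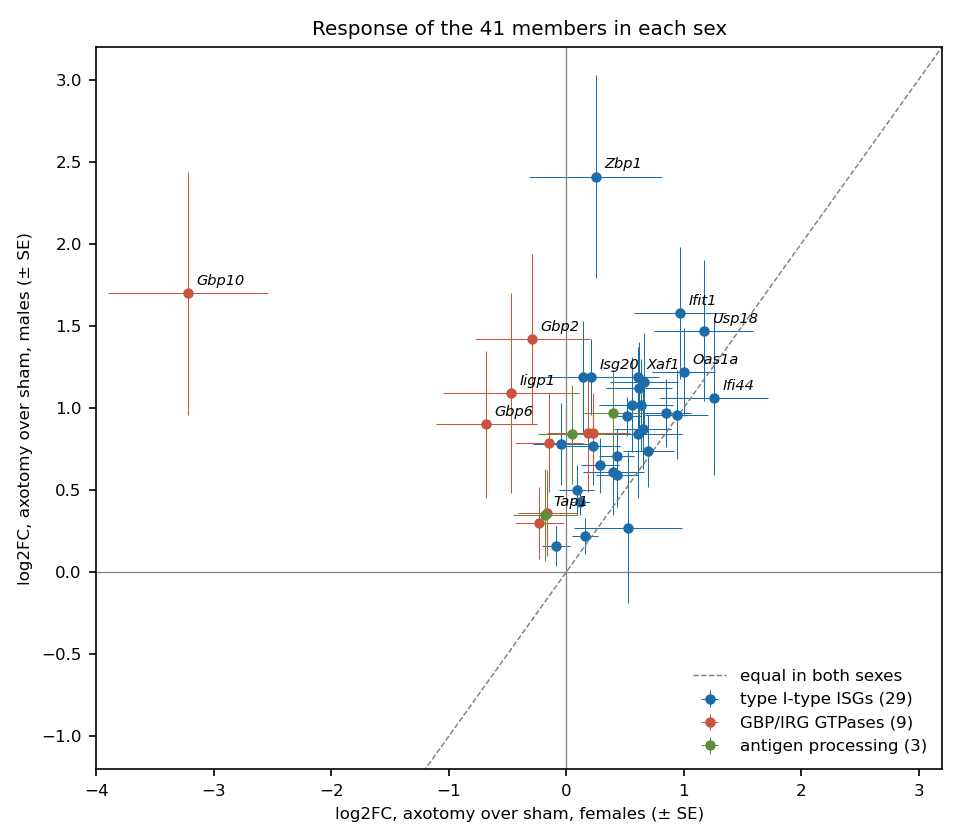
log2FC of axotomy over sham in females (horizontal axis) and males (vertical axis) for the 41 members, with bars of 1 SE and the dashed line of equal change. All points are above 0 in males, and the GBP/IRG GTPases lie farther to the left than most type I-type ISGs. Both axes use all libraries, female sham 1 included.

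The remainder of the interferon pathway was read from lists of named genes. Of 21 interferon genes, 15 had 0 counts in all 10 libraries, and 0 counts allow a level of up to 0.0333 CPM in the deepest and 0.0543 CPM in the shallowest library. The other 6 (Ifnb1, Ifna12, Ifna13, Ifnab, Ifnk and Ifng) had at most 7 counts over all libraries together, and none of the 21 could be tested. Interferon transcripts were thus at or near the limit of detection at this depth, in sham and after axotomy.

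For the counts of the lists that follow, the shares of all genes that rose and fell are 10.4% and 9.74% in females and 21.8% and 20.1% in males, and the shares that rose are 3.43% in females without female sham 1 and 11.3% in males without male sham 2.

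All 6 receptor genes were measured. In females 1 rose and 0 fell, and in males 1 rose and 1 fell. Il10rb, the shared chain of the interferon-λ and interleukin-10 receptors, rose in females, with a female log2FC of 0.34 ± 0.08 (padj = 0.0215) and a male log2FC of 0.11 ± 0.08 (padj = 0.3). Ifnar2, the signal-bearing chain of the type I receptor, rose in males, with a female log2FC of 0.27 ± 0.11 (padj = 0.145) and a male log2FC of 0.37 ± 0.11 (padj = 0.0268). Ifnlr1, the specific chain for interferon-λ, fell in males, with a female log2FC of −0.30 ± 0.23 (padj = 0.436) and a male log2FC of −0.60 ± 0.23 (padj = 0.0667). Ifnar1, Ifngr1 and Ifngr2 passed in neither sex. Without female sham 1, 0 receptor genes rose in females, and without male sham 2, 0 rose and 0 fell in males.

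Of 14 signal transduction genes, 3 rose and 1 fell in females, and 5 rose and 2 fell in males. Socs3, a feedback inhibitor of JAK kinases that many cytokines induce, had the smallest p, with a female log2FC of 0.89 ± 0.18 (padj = 0.0129) and a male log2FC of 1.43 ± 0.19 (padj = 0.000915). Jak2, the kinase of the interferon-γ receptor, rose in both sexes, with a female log2FC of 0.32 ± 0.08 (padj = 0.0289) and a male log2FC of 0.57 ± 0.08 (padj = 0.00127). Ptpn2, a phosphatase that switches off JAKs and STATs, rose as well, with a female log2FC of 0.45 ± 0.12 (padj = 0.0359) and a male log2FC of 0.79 ± 0.12 (padj = 0.0015). Jak1 fell in males, with a female log2FC of −0.13 ± 0.11 (padj = 0.483) and a male log2FC of −0.38 ± 0.11 (padj = 0.023). Without male sham 2, 3 of the 14 rose and 1 fell in males, and without female sham 1, 3 rose and 0 fell in females.

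Of 13 genes of nucleic acid sensing upstream of interferon, 3 rose and 1 fell in females, and 4 rose and 1 fell in males. Sting1, the adaptor of cytosolic DNA sensing, had a female log2FC of 0.88 ± 0.18 (padj = 0.0122) and a male log2FC of 1.55 ± 0.19 (padj = 0.000683). Myd88, the adaptor of most Toll-like receptors, had a female log2FC of 0.42 ± 0.13 (padj = 0.0531) and a male log2FC of 0.74 ± 0.13 (padj = 0.0023). Tlr7, a receptor for single-stranded RNA, rose in males, with a female log2FC of −0.20 ± 0.34 (padj = 0.737) and a male log2FC of 1.38 ± 0.35 (padj = 0.0124). Traf3, which links sensors to interferon production, fell in both sexes, with a female log2FC of −0.31 ± 0.10 (padj = 0.071) and a male log2FC of −0.61 ± 0.10 (padj = 0.00197). In females 1 of the 13 rose and 0 fell without female sham 1.

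GBP/IRG genes outside the 9 members were counted too. Of 12, 11 were tested, 0 rose and 1 fell in females, and 3 rose and 0 fell in males, with a median log2FC of −0.36 and 0.86. Ifi47, an IRG gene, had a female log2FC of −0.36 ± 0.50 (padj = 0.682) and a male log2FC of 1.45 ± 0.53 (padj = 0.0609). The level of Ifi47 was 7.23 CPM in female sham 1, 2.05 CPM in female sham 2 and 2.95 to 4.07 CPM in female axotomy libraries. Gm4951 had a female log2FC of 0.00 ± 0.47 (padj = 0.997) and a male log2FC of 1.37 ± 0.50 (padj = 0.056). Gbp8 had a female log2FC of −0.16 ± 0.37 (padj = 0.82) and a male log2FC of 0.99 ± 0.40 (padj = 0.0793). Gm12185 fell in females, with a female log2FC of −1.5 ± 0.51 (padj = 0.0783) and a male log2FC of 1.16 ± 0.54 (padj = 0.123). Without female sham 1, 0 rose and 0 fell in females (median log2FC 0.54), and without male sham 2, 0 rose in males (median log2FC 0.69).

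Of 16 further genes of MHC class I antigen presentation, 5 rose and 1 fell in females, and 10 rose and 0 fell in males, with a median log2FC of 0.26 and 0.42. Psme2, a subunit of the interferon-γ-inducible proteasome activator, had a female log2FC of 0.32 ± 0.11 (padj = 0.0801) and a male log2FC of 0.59 ± 0.11 (padj = 0.00344). Calr, a chaperone that also serves other proteins, had a female log2FC of 0.28 ± 0.09 (padj = 0.063) and a male log2FC of 0.43 ± 0.09 (padj = 0.00532). Pdia3, its partner in folding, had a female log2FC of 0.25 ± 0.07 (padj = 0.0382) and a male log2FC of 0.30 ± 0.07 (padj = 0.0088). Psmb10, the remaining immunoproteasome subunit, had a female log2FC of 0.24 ± 0.09 (padj = 0.104) and a male log2FC of 0.41 ± 0.09 (padj = 0.00685). In females 1 of the 16 rose and 0 fell without female sham 1, and in males 5 rose without male sham 2.

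Of 42 further interferon-induced genes, 3 rose and 2 fell in females, and 28 rose and 4 fell in males, with a median log2FC of 0.16 and 0.80. Ifitm1, a membrane protein that blocks viral entry, had a female log2FC of 1.2 ± 0.19 (padj = 0.00408) and a male log2FC of 1.5 ± 0.20 (padj = 0.00086). Ifitm3 and Ifitm2 belong to the same family. Ifitm3 had a female log2FC of 0.63 ± 0.17 (padj = 0.0368) and a male log2FC of 1.34 ± 0.17 (padj = 0.000896). Ifitm2 had a female log2FC of 0.47 ± 0.17 (padj = 0.0937) and a male log2FC of 1.0 ± 0.17 (padj = 0.00227). Samd9l, a restriction factor, had a female log2FC of 0.16 ± 0.13 (padj = 0.47) and a male log2FC of 0.99 ± 0.14 (padj = 0.00106). Without male sham 2, 16 of the 42 rose and 1 fell in males, and without female sham 1, 2 rose and 0 fell in females.

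Markers of several other cells moved with the male rise, and those of others did not. All 13 macrophage markers rose in males, with a summed level of 86.8 to 97.7 CPM in male sham and 166 to 303 CPM in male axotomy libraries. In females 1 of the 13 rose and 1 fell, with 113 to 139 CPM in sham and 128 to 191 CPM after axotomy. The macrophage sum was highest in male axotomy 3 (303 CPM), while the medians of the type I-type ISGs and the antigen-processing genes were highest in male axotomy 1 and that of the GBP/IRG GTPases in female sham 1. Markers of fibroblasts and meninges rose in males for 10 of 11 genes (689 to 700 CPM in sham, 972 to 1870 CPM after axotomy), and 0 rose and 2 fell in females. The markers of T and NK cells, the main producers of interferon-γ, summed to 3.24 to 6.5 CPM over all libraries, and 5 of the 10 tested rose in males. In males 6 of 6 markers of myelinating Schwann cells, 5 of 5 of erythrocytes, 5 of 6 of B cells and 4 of 6 of satellite glia rose too, and 7 of 10 of sensory neurons fell. Of 10 endothelial markers 0 rose and 3 fell in males, and of 7 of smooth muscle and pericytes 2 rose and 2 fell. For dendritic cells 3 of 7 tested rose and 1 fell, for neutrophils and monocytes 2 of 9 rose, and for CNS glia 1 of 4 tested rose. Markers of skeletal muscle and keratinocytes had 0 calls in males. The erythrocyte sum was 786 to 882 CPM in male sham and 1510 to 5200 CPM in male axotomy libraries. For female sham 1 against female sham 2, the sums were 139 and 113 CPM for macrophages and 52.3 and 36.3 CPM for neutrophils and monocytes. They were 3.95 and 3.52 CPM for T and NK cells, 36.7 and 36 CPM for B cells and 45.5 and 52.7 CPM for dendritic cells. Endothelium had 127 and 156 CPM, fibroblasts and meninges 923 and 860 CPM, erythrocytes 1080 and 1590 CPM and myelinating Schwann cells 7540 and 5420 CPM. The part of these cells in the results for interferon-stimulated genes was not tested.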

How the data were processed

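The authors trimmed paired reads of stranded poly-A libraries with Trimmomatic 0.39 and assigned them to Gencode M27 transcripts (GRCm39) with Salmon 1.3.0. Salmon's library type was not stated in the methods or labels, so it is not known whether reads of a gene and of an antisense partner were kept apart. The deposited values are estimated counts per transcript, not normalized. The TPM values that the authors deposited, which Salmon scaled by length and depth, were used for levels between genes only. The members and all lists of genes were chosen with earlier results of these data known, so their direction is not independent support.

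Estimated counts were summed per gene and rounded. After a filter on low counts (filterByExpr of edgeR 4.0.16 in R 4.3.3, minimum count 10), TMM factors and effective lengths entered as offsets, and 4 group means were fitted to all 10 libraries with edgeR's robust quasi-likelihood test. Genes with padj under 0.1 over all 20836 genes tested were called DEGs, and log2FC is axotomy over sham. CPM values of genes carry the same offsets, except those of Atf3 and the limits of detection, which use plain library totals. The SE is the log2FC divided by the square root of F. Alternatives were DESeq2 1.42.0, its size factors, no filter, no length offset, a replicate block, only the libraries compared and each library left out. Chi-square over degrees of freedom between replicate libraries was 7.33 to 71.1, above counting error, and the common biological coefficient of variation was 0.129. A count of 3 equals 0.0333 to 0.0543 CPM, for counting error only. Words of 31 bases shared between genes were counted in Gencode M21 transcripts, an older release than that of the files.

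Values are printed in every library for the GBP/IRG and antigen-processing members and for the 12 type I-type DEGs with the smallest p in either sex. Members that passed in neither sex are given by range, with up to 4 of the highest TPM named. From each further list up to 4 genes that passed, by smallest p, are named, and exceptions are stated. Replicate numbers were not shown to pair the libraries. Correlations of residuals ran from −0.12 to 0.27 over 13 same-numbered pairs, which cannot exclude a pairing.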

Additional observations from a re-analysis of the deposited data

How the results depend on the processing

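The number of upregulated members was 9 in females and 30 in males. Over the fits that leave out 1 library it ran from 0 to 15 in females and from 7 to 32 in males, and the downregulated count in females from 0 to 2. The upregulated count was 16 in females and 34 in males with the replicate block, although the numbers were not shown to pair the libraries. With only the libraries compared it was 14 in females and 31 in males, and with DESeq2 13 and 33. With no filter on low counts it fell to 6 in females and 21 in males. In that fit 0 of the 9 GBP/IRG GTPases were upregulated in males. The share of all genes upregulated was not counted for the replicate block, the libraries compared, DESeq2 or the fit with no filter. Whether calls were gained or lost for members only, or for all genes alike, is therefore not known for these fits. Without female sham 1 and male axotomy 1 together, an alternative added after seeing the data, females had 20 up and 0 down. Leaving out female sham 1, alone or with male axotomy 1, turned the direction of the female log2FC of Gbp2 and Iigp1 (each to 0.92), Gbp4 (0.33), Gbp6 (0.41), Gbp7 (0.14), Irgm1 (0.53), Tap1 (0.52), Dhx58 (0.31) and Isg20 (−0.02). None of these genes was called in females in the fit with all libraries. Leaving out female sham 1 alone raised the female class medians to 0.75, 0.53 and 0.66 for the type I-type ISGs, GBP/IRG GTPases and antigen-processing genes. Over single libraries left out, these medians ran from 0.39 to 0.75, from −0.61 to 0.53 and from −0.38 to 0.66.

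DESeq2 called 1 member for the difference between responses, 1 lower in male sham and 2 higher in males after axotomy, where edgeR called 0. With only the libraries compared, 1 was lower in male sham, and with no filter 1 was higher in males after axotomy. Leave-one-out fits gave 0 to 3 members for the difference between responses and 0 to 3 after axotomy. The causes were not tested. With 2 sham libraries per sex, each pooling 2 mice, the spread in sham is poorly known, and Gbp10, Oas3 and Oas2 are limited by depth.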
